A study of Mus musculus with 2 samples.

Results

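PTGL is the annotated name of layer 5 pyramidal tract neurons in chromatin accessibility profiles of single nuclei. Every nucleus that carries this name in the 2 libraries is described here. The name was taken as deposited, and nuclei were chosen by this name alone. The authors' annotation itself rests on the accessibility profiles, so the name is not independent of the data. PTGL covered 510 of 16314 nuclei, of which 184 of 7440 were in replicate 1 and 326 of 8874 in replicate 2. Both libraries were made by single-nucleus ATAC-seq on the droplet platform of 10x Genomics from dissection 3C, the region called MOp-2, a part of mouse primary motor cortex. ATAC-seq cuts open chromatin with a transposase, so that each sequenced fragment marks accessible DNA. The methods give the animals as C57BL/6J males of 56 to 63 days. They describe biological replicates for each dissection, with tissue pooled from several mice for each, without saying so separately for these droplet libraries. The 2 libraries are replicates of 1 condition. The labels number them and do not name their animals, so whether their spread is between animals or technical cannot be told apart. No test between groups was possible, and no p-value was made from nuclei.

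Pyramidal tract neurons are the large projection neurons of layer 5 that send the output of motor cortex to the spinal cord, brainstem, thalamus and midbrain. The other main projection neurons of that layer, here ITL5GL, are intratelencephalic neurons, whose axons stay within the cortex and striatum. The remaining glutamatergic names are intratelencephalic neurons of the other layers (ITL23GL, ITL4GL and ITL6GL), corticothalamic neurons of layer 6 (CTGL), which project to the thalamus, and near-projecting neurons (NPGL), whose axons stay close to the cell body.

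The study used 3 marker genes for PTGL. Fezf2 encodes a zinc-finger transcription factor that specifies subcerebral projection neurons and lies on the minus strand of chromosome 14 from 12342094 to 12348189 (mm10, GENCODE M21). Kcng1 encodes a modifier subunit of voltage-gated potassium channels and spans 168260117 to 168281736 on the minus strand of chromosome 2. Npsr1 encodes the receptor of neuropeptide S and spans 24097996 to 24316398 on the plus strand of chromosome 9. Each is protein-coding in that annotation. Accessibility at these genes was not analysed here, so the name PTGL was not checked and rests on the authors' annotation.

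PTGL was a small class of the motor cortex neurons, with 4.74% of the glutamatergic nuclei in replicate 1 (184 of 3882, 95% interval 4.09 to 5.46) and 6.93% in replicate 2 (326 of 4701, 6.22 to 7.70). The mean was 5.84% ± 1.55 (SD, n = 2). Intervals are exact Clopper-Pearson intervals at 95%, and they cover counting error only, not differences between dissections or nuclear preparations. Of all neurons PTGL made up 3.90% and 5.68%, and of all nuclei 2.47% and 3.67%. The share of glutamatergic nuclei was thus higher in replicate 2, by 0.55 on the log2 scale (counting interval 0.30 to 0.80). Such an interval excluded 0 for 71.4% of the 7 glutamatergic names and, over all nuclei, for 41.2% of the 17 names. A shift past counting error was therefore the rule among glutamatergic names, and PTGL had the largest positive one. ITL5GL of the same layer had a log2 ratio of 0.01 (-0.13 to 0.15). That of NPGL was larger in size than that of PTGL and negative, at -0.70 (-1.17 to -0.23). The shares of a library are parts of one whole, so these shifts are not independent of each other.

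For each PTGL nucleus there were 3.48 ITL5GL nuclei in replicate 1 and 2.40 in replicate 2. Written the other way, the ratio of PTGL to ITL5GL nuclei was 0.287 (184 to 641, interval 0.242 to 0.339) and 0.417 (326 to 781, 0.366 to 0.476), with a mean of 0.352 ± 0.0922 (SD, n = 2). The intervals of the libraries do not overlap. Among PTGL and ITL5GL nuclei together, PTGL held 22.3% and 29.4%.

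The ratio to CTGL, the other corticofugal class, was closer between the libraries. It was 0.283 (0.239 to 0.334) in replicate 1 and 0.330 (0.291 to 0.375) in replicate 2, and its log2 change of 0.22 had a counting interval that included 0 (-0.07 to 0.52). CTGL itself was higher by 0.33 on the log2 scale (0.20 to 0.46) as a share of glutamatergic nuclei, so both names with axons leaving the telencephalon were more frequent in replicate 2. Within PTGL, CTGL and NPGL together, PTGL held 20.1% of 917 nuclei and 23.7% of 1375. The log2 ratio of that share was 0.24, and its interval only just excluded 0 (0.0095 to 0.47).

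Against NPGL the ratio moved most. There were 2.22 PTGL nuclei per NPGL nucleus in replicate 1 (1.70 to 2.91) and 5.26 in replicate 2 (3.997 to 7.02), where NPGL numbered 83 and 62 nuclei. Against the upper layers the ratio was 0.157 and 0.274 for ITL23GL and 0.316 and 0.524 for ITL4GL. Against ITL6GL it was 0.321 and 0.445, with a log2 change of 0.47 (0.17 to 0.78). All 4 intratelencephalic names together gave 0.0621 PTGL nuclei per nucleus in replicate 1 and 0.0980 in replicate 2, or 16.1 and 10.2 intratelencephalic nuclei for each PTGL nucleus. Every one of the 6 single ratios was higher in replicate 2, and all but the ratio to CTGL changed by more than counting error. They share the same PTGL counts and are not independent of each other.

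**Figure D1:**
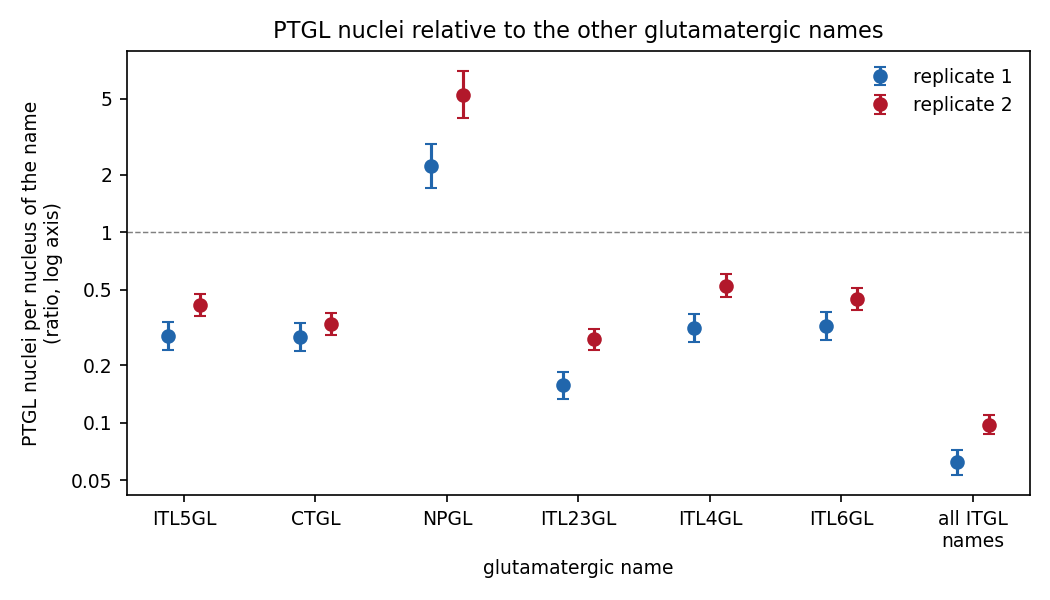
Number of PTGL nuclei for each nucleus of the other glutamatergic names (log axis) in replicates 1 (blue) and 2 (red). Points are ratios of nuclei, bars are exact 95% counting intervals, the dashed line marks equal numbers, and the last position sums the 4 intratelencephalic names. Replicate 2 lies higher against every name, with overlapping bars only for CTGL, and PTGL outnumbers NPGL alone.

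The deposited tables count fragments at 4 steps for each nucleus, and PTGL nuclei held many at each. In replicate 1 the median PTGL nucleus had 13353.5 total fragments, 12834 uniquely mapped, 12766.5 properly paired and 10997.5 unique fragments. In replicate 2 these medians were 12759.5, 12318, 12248 and 10524. The unique fragments, which remain after duplicates are removed, are what the profile of a nucleus rests on. They are counts of fragments and not of accessible sites. Their median was 10761 ± 335 over the libraries (SD of 2 medians), and in replicate 2 it was 0.957 times that of replicate 1, a smaller difference than in the share of nuclei. The middle 50% of PTGL nuclei lay between 8751 and 13594 unique fragments in replicate 1 and between 7249 and 14274 in replicate 2. The whole range was 1054 to 24713 and 1003 to 27119, where the deposited tables hold no nucleus under 1000.

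PTGL took a larger share of the fragments than of the nuclei. It supplied 6.15% of the unique fragments of glutamatergic nuclei in replicate 1, where it was 4.74% of the nuclei, and 9.23% in replicate 2, where it was 6.93%.

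The median PTGL nucleus had 1.17 times as many unique fragments as the median ITL5GL nucleus in replicate 1 and 1.26 times as many in replicate 2, a mean ratio of 1.22 ± 0.0592 (SD, n = 2). The ITL5GL medians were 9370 and 8370. The upper parts of the distribution showed the same step, with ratios of 1.20 and 1.25 at the third quartile and 1.20 and 1.22 at the 95th percentile. At the 5th percentile, the ratio was 1.17 in replicate 1 and 0.884 in replicate 2. The shallowest PTGL nuclei of replicate 2 were thus no deeper than the shallowest of ITL5GL. In replicate 1 the step was also present at the 5th percentile. The bulk and the upper tail showed the step between these layer 5 classes in both libraries.

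The other glutamatergic names lay further below. The median of PTGL was 1.45 and 1.48 times that of CTGL, 1.64 and 1.65 times that of NPGL and 1.49 and 1.45 times that of ITL4GL. It was 1.28 and 1.34 times that of ITL23GL and 1.24 and 1.34 times that of ITL6GL. ITL5GL had the next highest median in both libraries. These ratios differed between the libraries by less than they differ from 1.

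The number of distinct fragments in the library of each nucleus was also estimated from its properly paired and unique counts by the Lander-Waterman equation. The median PTGL estimate was 42617 in replicate 1 and 38757 in replicate 2. It exceeded that of ITL5GL 1.16-fold and 1.25-fold, or 1.21 ± 0.0599 (SD, n = 2), nearly the same as for the observed fragments. The estimate uses the same counts, so this is no separate evidence.

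**Figure D2:**
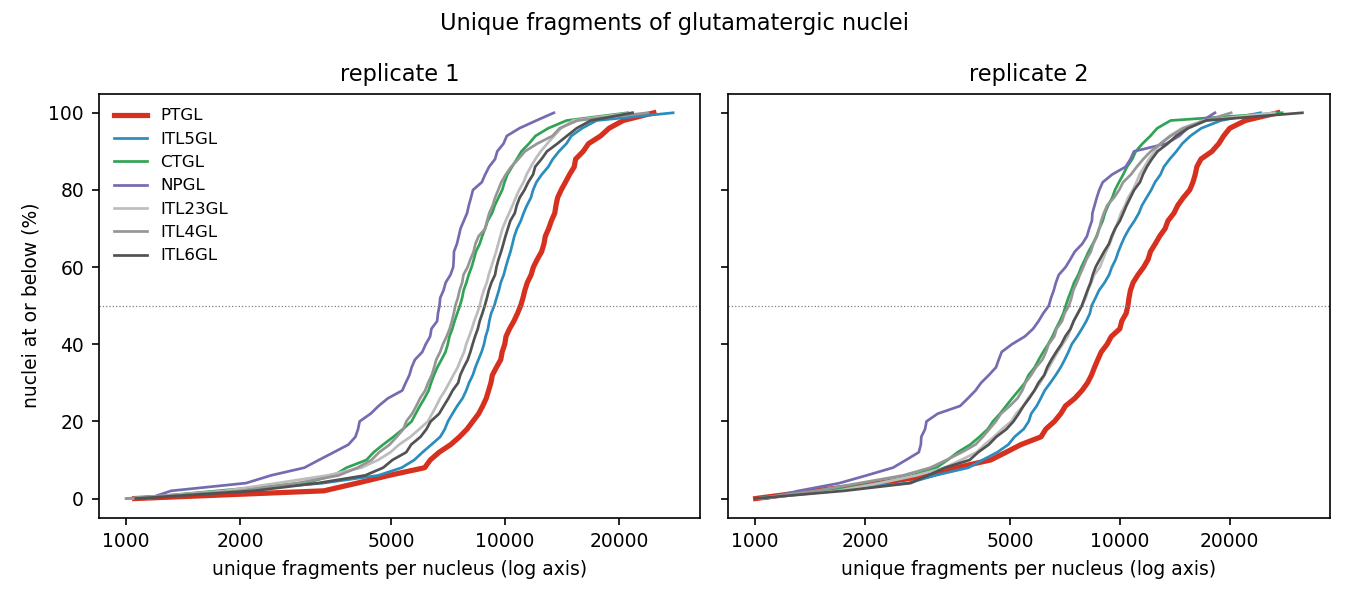
Percentage of nuclei of each glutamatergic name (vertical axis) with at most the given number of unique fragments (horizontal, log axis) in replicate 1 (left) and replicate 2 (right). PTGL (thick red line) lies furthest to the right from the first quartile to the 95th percentile, with medians of 10997.5 and 10524 at the dotted line. In replicate 2 its lowest part runs together with those of the other names.

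Among the glutamatergic names, PTGL stood out in the upper tail. Nuclei with at least 15000 unique fragments made up 15.2% of PTGL in replicate 1 (28 of 184, 10.4 to 21.2) and 21.5% in replicate 2 (70 of 326, 17.1 to 26.3). For ITL5GL, these shares were 5.93% (38 of 641, 4.23 to 8.05) and 7.17% (56 of 781, 5.46 to 9.21), and the intervals of the 2 names did not overlap in either library. Nuclei with at least 20000 numbered 5 and 14 in PTGL. At least 25000 were found in 0 of 184 PTGL nuclei of replicate 1, an interval that reaches up to 1.98%, and in 3 of 326 of replicate 2. No doublet score is given per nucleus in the values used here, and the part of doublets in this tail was not tested.

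The share of PTGL nuclei under 5000 fragments was small among the glutamatergic names and near that of ITL5GL. In replicate 2 the very bottom was not light. Under 5000 unique fragments were 6.52% of PTGL nuclei in replicate 1 (12 of 184, 3.42 to 11.1) and 12.3% in replicate 2 (40 of 326, 8.91 to 16.3). The matching shares of ITL5GL were 7.33% and 15.2%, and those of CTGL 15.2% and 25.6%. PTGL thus had the smallest share of nuclei below 5000 of the glutamatergic names in both libraries. Below 2000 there were 2 PTGL nuclei in replicate 1 and 13 in replicate 2, or 1.09% (0.132 to 3.87) and 3.99% (2.14 to 6.72), beside 2.18% and 3.07% of ITL5GL, and the intervals overlapped. All glutamatergic names had more nuclei below 5000 in replicate 2, and every one had a wider distribution there. The ratio of the 95th to the 5th percentile went from 3.91 to 7.81 in PTGL and from 3.83 to 5.67 in ITL5GL, while NPGL was wider still in replicate 2, at 8.20. On the log10 scale the SD over PTGL nuclei was 0.192 in replicate 1 and 0.264 in replicate 2.

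Among the 5% of nuclei of a library with the most unique fragments, PTGL made up 14.0% in replicate 1 (52 of 372, 10.6 to 17.9) and 20% in replicate 2 (89 of 444, 16.4 to 24.1). This was 5.65 and 5.46 times its share of all nuclei. Of PTGL nuclei, 28.3% and 27.3% were in this tail. ITL5GL was 2.56- and 2.35-fold over its share there and ITL6GL 1.85- and 1.53-fold. Non-glutamatergic nuclei with at least 1% of the tail were Pvalb+ interneurons (PVGA), at 4.84% and 5.63% of it, Sst+ interneurons (SSTGA), the interneurons named CGE and vascular endothelial cells (VEC), and in replicate 2 also microglia (MGL). In the deepest 1% of nuclei, PTGL accounted for 14 of 75 and 24 of 89, which is 18.7% and 27.0%. This was 7.55 and 7.34 times its share of all nuclei. VEC came near in replicate 1, at 6.84-fold over its share, and reached 4.44-fold in replicate 2 (10 of 75 and 11 of 89). ITL5GL held 17 of 75 and 14 of 89, more nuclei than PTGL in replicate 1.

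The share of PTGL therefore depended on which depths were counted (each range includes its lower bound and not its upper one). Of glutamatergic nuclei with 5000 to 8000 unique fragments, PTGL made up 1.76% in replicate 1 (22 of 1247) and 3.65% in replicate 2 (55 of 1505). Of those with 16000 or more, it made up 20.4% (19 of 93) and 30.2% (55 of 182). The share did not rise over the whole range, since nuclei with 1000 to 5000 held a little more PTGL, at 2.60% (12 of 461, 1.35 to 4.50) and 4.16% (40 of 961, 2.99 to 5.63). The intervals of the 2 lowest ranges overlapped within each library. The ratio of PTGL to ITL5GL nuclei went the same way, from 0.152 and 0.237 at 5000 to 8000 fragments to 0.731 and 1.25 at 16000 or more. The intervals of the last values, 0.382 to 1.37 and 0.826 to 1.90, both include equal numbers.

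Replicate 2 had the higher PTGL share in each of the 5 depth ranges. The log2 ratio was 0.68 (-0.24 to 1.59) at 1000 to 5000 fragments, 1.05 (0.35 to 1.76) at 5000 to 8000 and 0.56 (0.15 to 0.96) at 8000 to 12000. It was 0.15 (-0.34 to 0.64) at 12000 to 16000 and 0.56 (-0.10 to 1.23) above. The counting interval excluded 0 in the ranges from 5000 to 8000 and from 8000 to 12000, and the wide intervals do not show that the ranges differ.

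**Figure D3:**
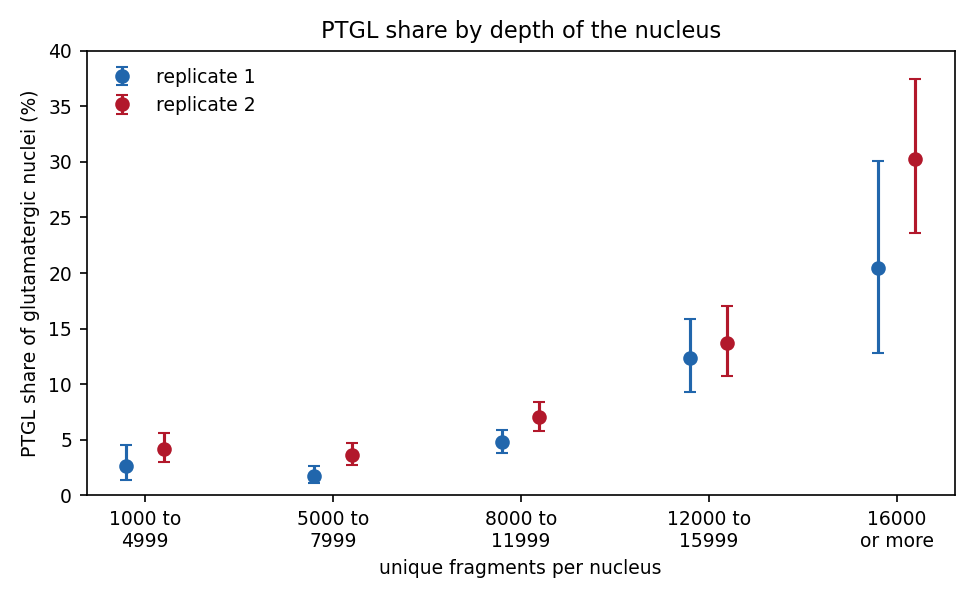
PTGL nuclei as a percentage of glutamatergic nuclei (vertical axis, from 0) in 5 ranges of unique fragments per nucleus, in replicates 1 (blue) and 2 (red), with exact 95% counting intervals. The share is lowest at 5000 to 8000 fragments (1.76% and 3.65%) and highest at 16000 or more (20.4% and 30.2%), and the red point is above the blue one in each range.

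PTGL nuclei did not stand apart in how their reads mapped. The share of total fragments that mapped uniquely had a median of 96.1% in replicate 1 and 96.2% in replicate 2, and 99.5% of those were properly paired in both. Duplicates, the properly paired fragments lost on the way to the unique count, had a median of 13.4% and 14.4% in PTGL, with 13.5% and 14.5% in ITL5GL. The step of about 1 percentage point between the libraries was thus present in both names and was larger than the difference between the names.

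Duplicates usually become more frequent as a nucleus is sequenced more deeply, so names were also set side by side at like depth. With 8000 to 16000 properly paired fragments, the median share of duplicates was 13.4% and 14.5% in PTGL, 13.5% and 14.6% in ITL5GL and 13.8% and 14.7% in CTGL. At 16000 or more it was 13.5% in PTGL against 13.7% in ITL5GL in replicate 1 and 14.6% against 14.7% in replicate 2. The median of the deepest PTGL nuclei was thus no higher than that of ITL5GL nuclei of like depth. Over PTGL nuclei, unique fragments and duplicate share had a Spearman correlation of 0.334 in replicate 1 (184 nuclei) and 0.284 in replicate 2 (326 nuclei). The nuclei of a library share their preparation and both measures use the unique count, so this is a description only.

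A few PTGL nuclei left this pattern. In replicate 2, 4 nuclei with 1387 to 1468 unique fragments had duplicate shares of 0.834%, 0.894%, 1.70% and 1.74%. The remaining PTGL nuclei of that library lay between 10.9% and 17.2%, and all those of replicate 1 between 11.0% and 15.5%. Nuclei under 10% duplicates were 4 of 326 PTGL nuclei in replicate 2 (1.23%, 0.335 to 3.11) and 0 of 184 in replicate 1 (up to 1.98%). They also occurred in other glutamatergic names, in 23 of 3698 nuclei of replicate 1 (0.622%) and 18 of 4375 of replicate 2 (0.411%, 0.244 to 0.649). They were thus not confined to PTGL, and in replicate 2 its interval overlapped that of the other names. One of the 4 also had the lowest mapping of the PTGL nuclei in its library, with 81.2% of 1954 total fragments uniquely mapped. The lowest in replicate 1 was 75.8% of 7554. Under 95% uniquely mapped were 2 of 184 and 9 of 326 PTGL nuclei.

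**Figure D4:**
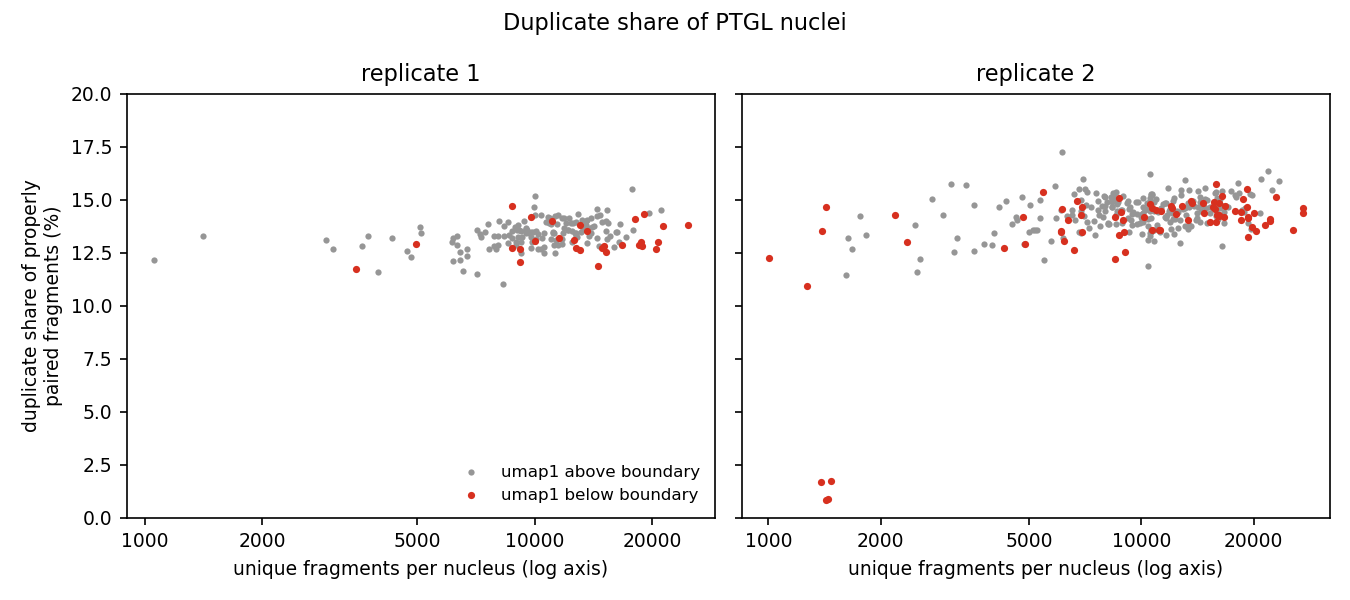
Duplicate share of properly paired fragments (%, vertical axis from 0) against unique fragments (horizontal, log axis) for each PTGL nucleus of the main group in replicate 1 (left) and replicate 2 (right). Red points have umap1 below 11.55 and grey points lie above it. Most nuclei form a band between 10.9% and 17.2%, and 4 red points of replicate 2 lie below 2%.

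In the UMAP embedding, a map that places nuclei of like accessibility close together, PTGL formed an island of its own. All 30 nearest neighbours carried the name PTGL for 184 of 184 PTGL nuclei in replicate 1 and for 324 of 326 in replicate 2. By the share of nuclei whose neighbours were all of their own name, no other glutamatergic name was as closed. That share was 97.1% and 95.7% for ITL23GL, 94.0% and 94.3% for CTGL and 89.5% and 92.1% for ITL5GL. For ITL4GL it was 94.7% and 93.9%, for NPGL 72.3% and 80.6%, and for ITL6GL 70.5% and 70.2%. By the mean share of own neighbours in replicate 2, PTGL at 99.4% lay below ITL23GL (99.8%) and CTGL (99.5%). The name and the embedding come from the same profiles, so closed neighbourhoods are a description of the authors' clustering and no independent check of the label.

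The 2 exceptions were both in replicate 2 and lay inside the intratelencephalic nuclei. One had 11976 unique fragments and neighbours of ITL6GL (83.3%) and ITL4GL (16.7%), and the other had 3232 and neighbours of ITL6GL only. Their nearest ITL6GL nuclei were at distances of 0.0321 and 0.0387 map units. Their duplicate shares, 14.7% and 13.6%, were those of ordinary nuclei. Of nuclei with other names, 59 had a PTGL nucleus among their neighbours, in each case 1 of these 2 strays and never one of the 508 island nuclei. No PTGL nucleus had an ITL5GL neighbour.

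The names nearest to the island were not those of layer 5. From the median position of PTGL, the median of SSTGA was 5.16 map units away, that of ITL4GL 5.42 and that of PVGA 5.65. ITL5GL followed at 8.06, CTGL lay at 16.9 and NPGL at 20.8. The nearest nucleus of another name was SSTGA for 87 and 141 PTGL nuclei, PVGA for 59 and 93 and ITL4GL for 38 and 90, and for island nuclei it was never closer than 3.49 units. The median distance of PTGL nuclei from their centre was 0.411, which was less than for ITL5GL (1.36) and more than for NPGL (0.208). Long distances between islands of a UMAP map are not to scale, so this order says little about likeness of chromatin.

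**Figure D5:**
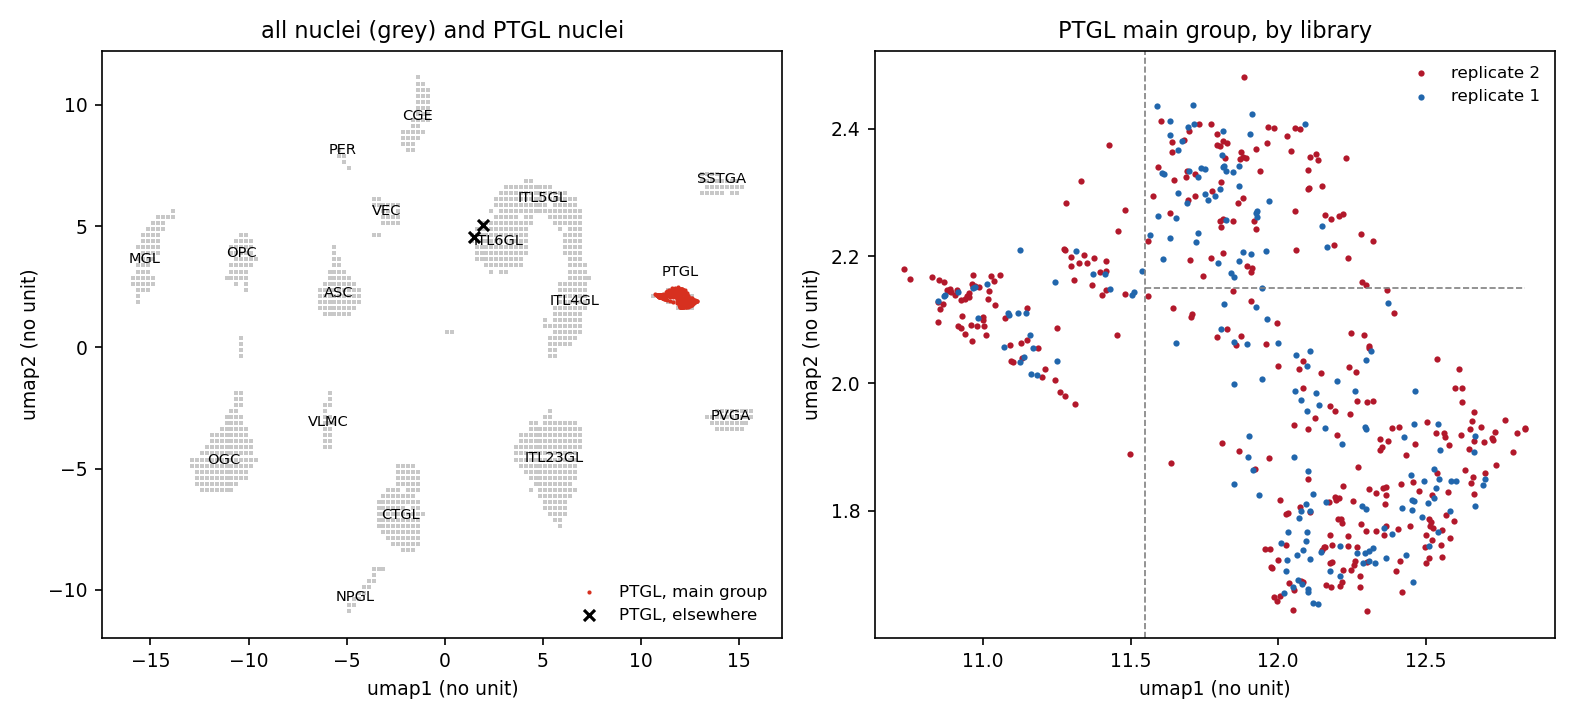
Left, occupied positions of all nuclei (grey squares) in the authors' UMAP embedding, which has no unit, with PTGL nuclei of the main group in red, the 2 other PTGL nuclei as crosses and names at the median positions. Right, the 508 PTGL nuclei of the main group in replicates 1 (blue) and 2 (red), with dashed lines at umap1 11.55 and umap2 2.15 that part 3 areas. PTGL is separate from all other names, and the area at low umap1 holds 29 nuclei of replicate 1 and 81 of replicate 2.

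Nuclei of both libraries lay throughout the island. Among their PTGL neighbours, PTGL nuclei of replicate 1 had 58.5% from replicate 2, 0.913 of what random mixing of PTGL nuclei gives, and nuclei of replicate 2 had 36.0% from replicate 1, 0.996 of it. The mean ratio was 0.955 ± 0.0587 (SD of the 2 directions), where 1 is full mixing. Both directions use both libraries, so this SD is not a spread between replicates. For nuclei of replicate 1, the ratio was 0.986 in ITL5GL, 0.967 in CTGL and 0.942 in NPGL, so PTGL was the least mixed of the glutamatergic names from that side with 30 neighbours. With 100 neighbours PTGL was at 0.948 and NPGL lower, at 0.920.

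Within the island, PTGL nuclei fell into 3 areas, parted at umap1 11.55 and umap2 2.15. The boundaries lie in the emptiest 0.1 units in the middle of each axis, which still held 10 and 27 nuclei. They were set after the values were seen, and no marker was available to name the areas, which are described by position alone. The area at high umap1 and low umap2 was the largest, with 55.4% of island nuclei in replicate 1 (102 of 184) and 52.2% in replicate 2 (169 of 324). The area at high umap1 and high umap2 held 28.8% (53) and 22.8% (74). The area at low umap1 held 15.8% (29, interval 10.8 to 21.8) and 25% (81, 20.4 to 30.1).

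By the log2 ratio, the low umap1 area changed most between the libraries, while by number of nuclei the gain was larger at high umap1 and low umap2 (102 to 169). As a share of glutamatergic nuclei its log2 ratio was 1.21 (0.60 to 1.81), against 0.45 (0.10 to 0.80) at high umap1 and low umap2 and 0.21 (-0.30 to 0.71) at high umap1 and high umap2. The first interval overlaps the others, but overlap does not decide whether the areas differ in their change. As a share of island nuclei alone the log2 ratio at low umap1 was 0.67 (0.11 to 1.22), a rise past counting error within the island. That log2 ratio was -0.09 (-0.33 to 0.15) at high umap1 and low umap2 and -0.33 (-0.77 to 0.10) at high umap1 and high umap2. The areas were drawn after the values were seen, which these intervals do not cover. With the boundary at 11.45 or 11.65 in place of 11.55, the log2 ratio of glutamatergic shares was 1.27 and 1.00, and both intervals excluded 0. Of the 142 PTGL nuclei that replicate 2 held beyond replicate 1, 52 were in the low umap1 area. Without that area, 155 PTGL nuclei were left in replicate 1 and 245 in replicate 2. The log2 ratio of the PTGL share of glutamatergic nuclei was then 0.40 (0.12 to 0.68).

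Depth also differed between the areas. At low umap1 the median was 13628 unique fragments in replicate 1 and 11999 in replicate 2, above the 10556 and 10031 at low umap2 and the 10876 and 10720 at high umap2. Nuclei with at least 15000 made up 41.4% (12 of 29) and 39.5% (32 of 81) of this area, and 11.8% and 13.6% of the largest one. In replicate 2 the same area also held many shallow nuclei, with 10 of 81 under 3000 against 0 of 29 in replicate 1, and the 4 nuclei with few duplicates were all among them. Its SD on the log10 scale was accordingly 0.189 in replicate 1 and 0.360 in replicate 2. The low umap1 area thus held the deepest PTGL nuclei in both libraries, and in replicate 2 also the shallowest. The part of depth in the position of these nuclei was not tested.

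Of cell barcodes, 105 occurred in both libraries, and 11 of them carried the same name in both. Among these barcodes 1 was PTGL in replicate 1 and 5 were PTGL in replicate 2, and none was PTGL in both. The numbers that random pairing of names gives were not computed, so these counts are a description only.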

How the data were processed

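The authors deposited a table for each library that gives, per nucleus, whole-number fragment counts (all, mapped uniquely, in proper pairs, unique, mitochondrial), UMAP coordinates and an annotated name. A further deposited column is the log10 of the unique count plus 1. In the study's processing, bwa aligned the reads to mm10, fragments were selected by mapping quality, pairing and length, SnapTools removed duplicates, and a minimum of fragments and of TSS enrichment selected nuclei. Doublets were treated only by the authors, with a modified Scrublet and removal of barcode collisions. Cell Ranger ATAC is also named in the submitters' processing notes. Its role, and tool versions, were not given in the sources used here. Column meanings follow SnapTools. Which nuclei entered the embedding is not stated. Depth was 48179226 unique fragments over 7440 nuclei in replicate 1 and 55337466 over 8874 in replicate 2. The lowest unique count was 1000, so shallow nuclei of every name are missing, and mitochondrial counts were 0 throughout.

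Shares and ratios of nuclei had exact Clopper-Pearson 95% intervals, and log2 ratios (replicate 2 over 1) intervals from the log method. Neighbours were the 30 nearest nuclei of both libraries together. Distinct fragments were estimated by the Lander-Waterman equation. The estimate, the intervals and the mixing ratio were tested on simulated data. Other names in the text are the 7 glutamatergic ones and those with at least 1% of the PTGL neighbours or of the deepest 5% of nuclei. The PTGL nuclei, these names and the markers were chosen with earlier results of these data known. Values were recomputed with at least 2000 or 5000 unique fragments, without the deepest 5% of nuclei, without nuclei with under 50% own neighbours, with other denominators, pooled, by library, and with 10 or 100 neighbours. The areas within PTGL, the limit of 10% duplicates and the alternatives built on them were chosen after seeing the data. Software was scikit-learn 1.9.0, scipy 1.17.1, numpy 2.4.6, pandas 2.3.3 and matplotlib 3.10.9 in Python 3.11.15.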

Additional observations from a re-analysis of the deposited data

How the results depend on the processing

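Of 70 values recomputed under alternatives, 64 stayed within the SD of the 2 main values or, for the log2 ratio of the PTGL share, on the same side of 0. Only that log2 ratio could turn direction, and it did not. An SD of 2 values is wide, so a fall seen in both libraries can lie within it. Each library alone is not counted among the 70, since a mean of 2 values fixes how far each can lie from it in units of their SD. Of all nuclei rather than glutamatergic nuclei, PTGL made up 3.07%. Without the 5% of nuclei with the most unique fragments, the PTGL median fell to 9209 unique fragments, its ratio to ITL5GL to 1.09 and the ratio of estimated distinct fragments to 1.10. With this filter the PTGL share of glutamatergic nuclei also fell, from 4.74% and 6.93% to 3.72% and 5.48%. The ratio of PTGL to ITL5GL nuclei fell from 0.287 and 0.417 to 0.236 and 0.344. Each was below the counting interval of its unfiltered value, though both results count among the 64. This filter cuts on the measured count and took out 28.3% and 27.3% of PTGL nuclei but 12.8% and 11.8% of ITL5GL nuclei. The part of the cut itself in these lower values was not tested. Counted as total fragments, the PTGL median was 13057. PTGL made up 22.8% of the deepest 1% of nuclei. No paired analysis was possible because both libraries are of the same condition. With 2 libraries, the intervals cover counting error alone, and the deepest range rests on 19 and 55 PTGL nuclei.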
